A study of Mus musculus with 10 samples.

Results

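The replication histone genes, taken as every gene whose symbol starts with Hist1h or Hist2h, were followed through single-cell libraries from SW1 tumors. They made up 64 of the 32285 genes in the matrices. By protein there were 6 genes for the linker histone H1, 17 for H2A, 17 for H2B, 12 for H3 and 12 for H4. The members lay in 2 clusters, with 54 on chromosome 13 between positions 21715763 and 23934851 and 10 on chromosome 3 between 96219865 and 96270132 (GRCm38).

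SW1 is a mouse melanoma line, which was grown under the skin of the flank of C3H/HeJ mice (female per the labels) aged 4 to 6 weeks at injection. The groups were pretreatment (day 0 of treatment, 10 days after injection per the labels), control water for 7 or 21 days, and L-fuc, the dietary sugar L-fucose, in the drinking water for 7 or 21 days. The L-fuc dose was 100 mM in one protocol of the labels, and a second protocol there gave another unit. Tumors of each cohort were pooled into 1 gene expression library, so each of the 5 groups was 1 library without replicates, no test between groups was possible, and all intervals below are 95% intervals that cover counting error only.

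Replication histone genes supply the histones that package newly made DNA. Their transcription rises as cells enter S phase, and their mRNAs are unusual in ending at a short stem-loop rather than in a poly(A) tail. The stem-loop binding protein SLBP holds this hairpin through processing, export and translation, and the mRNAs are broken down when DNA synthesis stops. Members are also known to give some polyadenylated transcripts, mainly in cells that no longer divide.

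The hairpins are shown because they set these mRNAs apart from the polyadenylated mRNAs that an oligo(dT) primer reaches best. Each annotated model was searched within 100 bases after a stop codon for a 6-base stem with a 4-base loop. The arms had to be fully complementary, the stem to start with GG and the loop to be rich in T. Shared features of the hairpins are thus partly set by the search. A match was found for 62 of the 64 members, 21 to 58 bases after the stop codon. No match to this pattern was found for Hist2h2be and Hist1h2an in that window. The hairpin with the loop TTTC and a GGCTCT stem served 39 members, the same stem with a TTTA loop served 9, and a GGCCCT stem with TTTC served 7, all H4 genes. The sites of 10 described members (GRCm38, mRNA strand, 5′ to 3′) follow, with the 16 bases of stem and loop in capitals and 5 bases on each side in lower case.
Hist1h1e (H1.4), chr13:23621777-23621802, minus strand: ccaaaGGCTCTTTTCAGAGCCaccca
Hist1h1c (H1.2), chr13:23739507-23739532, plus strand: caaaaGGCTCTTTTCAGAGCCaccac
Hist1h1a (H1.1), chr13:23764387-23764412, plus strand: ccaacGGCTCTTTTCAGAGCCaccaa
Hist1h2ae (H2A), chr13:23570663-23570688, minus strand: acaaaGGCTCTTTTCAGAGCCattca
Hist1h2ap (H2A), chr13:21833024-21833049, minus strand: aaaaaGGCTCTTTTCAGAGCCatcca
Hist2h2ac (H2A), chr3:96220413-96220438, minus strand: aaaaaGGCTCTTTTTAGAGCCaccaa
Hist1h2bc (H2B), chr13:23684642-23684667, plus strand: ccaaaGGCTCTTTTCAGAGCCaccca
Hist1h3e (H3), chr13:23561898-23561923, minus strand: aaaacGGCTCTTTTAAGAGCCacctc
Hist1h4d (H4), chr13:23581945-23581970, plus strand: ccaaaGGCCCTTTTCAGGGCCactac
Hist1h4i (H4), chr13:22040961-22040986, minus strand: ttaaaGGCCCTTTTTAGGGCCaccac
Members with high and with low levels carried the same hairpin, and members that differed in how they followed the cell cycle (Hist1h2ae and Hist1h2bc, below) shared all 16 bases.

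Promoters were examined because the histone types differ in the elements that drive them, and because 1 H1 gene, Hist1h1a, differed widely between cell classes (below). RefSeq promoters (250 bases before to 50 after the start, GRCm38.p6) matched 58 of the 64 members by symbol or synonym. Both strands were searched for the TATA box TATAAA, the CCAAT box CCAAT, the H1 box AAACACA, the octamer ATTTGCAT and the H4 element GGTCC, none of which contains another. TATAAA was in 58.6% of member promoters and 13.6% of all 32851 promoters, and CCAAT was in 86.2% and 37.4%. CCAAT was in every matched promoter of H1, H2A, H2B and H3 and in 27.3% of those of H4. GGTCC was in 90.9% of the H4 promoters against 45.5% of all, and ATTTGCAT was in 37.5% of the H2A and 40.0% of the H2B promoters against 1.74% of all. AAACACA was in 5 of 6 H1 promoters against 7.18% of all, and the H1 promoter without it was that of Hist1h1a. The promoters of Hist1h1e, the H1 gene with the most UMIs, and of Hist1h1a are printed 5′ to 3′ with every motif match in capitals.
Hist1h1e, chr13:23622509-23622808, minus strand: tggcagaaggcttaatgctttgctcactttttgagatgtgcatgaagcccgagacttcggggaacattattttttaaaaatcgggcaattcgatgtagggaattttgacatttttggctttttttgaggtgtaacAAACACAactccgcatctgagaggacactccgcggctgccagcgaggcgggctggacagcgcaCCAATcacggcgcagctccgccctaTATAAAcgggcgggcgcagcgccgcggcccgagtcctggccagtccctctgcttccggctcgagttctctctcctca
Hist1h1a, chr13:23763418-23763717, plus strand: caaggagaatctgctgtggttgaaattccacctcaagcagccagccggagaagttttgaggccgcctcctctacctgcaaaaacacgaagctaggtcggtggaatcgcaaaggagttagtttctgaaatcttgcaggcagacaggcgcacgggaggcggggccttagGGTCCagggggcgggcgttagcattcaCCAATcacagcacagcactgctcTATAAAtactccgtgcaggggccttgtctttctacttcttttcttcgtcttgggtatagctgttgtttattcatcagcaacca
A motif match is only a description of these letters in this window. The Hist1h1a promoter holds a run that differs from the H1 box by 1 base. Hist1h1t, whose promoter has the H1 box, had 4 UMIs over all libraries. Whether the box bears on the level of Hist1h1a was not tested.

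Each RNA molecule was counted once by its unique molecular identifier (UMI), and levels are given as CPM, the UMIs of the genes per 1000000 UMIs of the same barcodes. The libraries held 14439185 to 119047810 UMIs, and 36440 of 41936 barcodes had at least 200 genes and at most 10% mitochondrial UMIs. Barcodes were called tumor with at least 1 Sox10 UMI and no Ptprc UMI, Ptprc-positive with at least 1 UMI of Ptprc (CD45), and remaining otherwise. The libraries are labelled as CD45+ sorted, yet 252, 8485, 2813, 461 and 241 barcodes of 2000 UMIs and above were of the tumor class (pretreatment, control day 7, L-fuc day 7, control day 21, L-fuc day 21, the order used below). In these barcodes the 12 melanoma and Schwann-like markers summed to 785 to 871 CPM, against 61.9 to 495 in the Ptprc-positive ones, and the 12 leukocyte markers summed to 846 to 1461, against 5385 to 13239. The first list holds Sox10 and the second Ptprc, which define the classes, so part of both differences was set by the gate. The day 7 libraries held the most barcodes with both Sox10 and Ptprc (2058 in control and 692 with L-fuc, against 11 to 43 in the others), and pairs of libraries shared 2 to 324 kept barcode sequences. Barcodes with both genes were counted as Ptprc-positive, shared sequences were kept, and no doublet caller was run.

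Over all kept barcodes there were 280031 histone UMIs, a level of 1111 CPM. The H2A genes gave 35.5% of them, H1 33.8%, H4 14.2%, H3 10.0% and H2B 6.37%. The counts were concentrated in few genes, of which 4 gave 56.3% and 8 gave 77.7%. Hist1h2ae led with 54930 UMIs, followed by the linker histone gene Hist1h1e with 47857, Hist1h2ap with 28678 and Hist1h4d with 26178. Hist1h1b (H1.5) had 18181, Hist1h3e 14405, Hist1h1c 14074 and Hist1h1d (H1.3) 13343. At the low end, Hist1h2bq had no UMI, and 4 members had 1 to 9. Among these 4 were Hist1h1t, Hist1h2aa and Hist1h2ba, whose proteins are known from the testis. At least 10 UMIs in every library were reached by 51 members.

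The counts were also divided by where the annotated model stopped. In 28 members the model runs 100 or more bases past the stop codon, beyond the hairpin where one was found, and these held 71.7% of the histone UMIs. In the other 36 the model ends sooner, and these held 28.3%. Of the 29 members with at least 1000 UMIs, 16 had the longer kind and 13 the shorter. The longer kind included Hist1h2ae, Hist1h1e and Hist1h4d, and the shorter Hist1h2ap and Hist1h1b. Some copies share sequence. Hist1h2ap and Hist1h2ao, Hist1h4n and Hist1h4m, and Hist2h2aa1 and Hist2h2aa2 have identical coding sequences, and the Hist1h2be model overlaps that of Hist1h1e by 496 bases on the same strand. How reads of the shared parts were divided was not tested, so their separate values are uncertain.

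Histone levels per library were 1106 (1088 to 1123), 1177 (1171 to 1183), 833 (827 to 840), 1203 (1188 to 1218) and 1976 (1954 to 1998) CPM. The L-fuc day 21 library was the highest and the L-fuc day 7 library the lowest, 2.37-fold apart.

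Within barcodes of 2000 UMIs and above, tumor barcodes had 1429, 1086, 860, 1360 and 2658 histone CPM. Ptprc-positive barcodes had 971, 1116, 791, 1055 and 1262. Remaining barcodes, which belong to neither class, had 939, 1100, 536, 489 and 513. The summed tumor level was thus above the Ptprc-positive level in 4 libraries and just below it in control day 7. The ratio was 1.47 (1.42 to 1.52) at pretreatment, 0.973 (0.960 to 0.986) in control day 7, 1.09 (1.07 to 1.11) with L-fuc at day 7, 1.29 (1.25 to 1.32) in control day 21 and 2.11 (2.05 to 2.16) with L-fuc at day 21. Top2a, the topoisomerase of S to M phase, had ratios of 2.93, 1.22, 1.79, 3.78 and 4.85, and Mki67, the gene of the proliferation antigen Ki-67, had 1.93, 0.871, 1.21, 1.78 and 1.68. In each library the class difference in histone level was smaller than that in Top2a. Among members with at least 10 UMIs, 6 of 52 were at least 2-fold higher in the tumor class at pretreatment (29.6% of all genes tested), 1 of 56 in control day 7 (2.61%), 3 of 56 with L-fuc at day 7 (20%), 5 of 54 in control day 21 (37.3%) and 25 of 53 with L-fuc at day 21 (37.1%). In all but the last these shares were below that of all genes. Members with a log2 ratio above 0 were 33 of 52, 12 of 56, 20 of 56, 22 of 54 and 38 of 53. Their median log2 ratio was 0.26, -0.19, -0.36, -0.31 and 0.93, against 0.38, 0.08, 0.20, 0.63 and 0.62 for all genes. With L-fuc at day 7 and in control day 21 most members were thus lower in the tumor class, although their sum was higher.

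**Figure D1:**
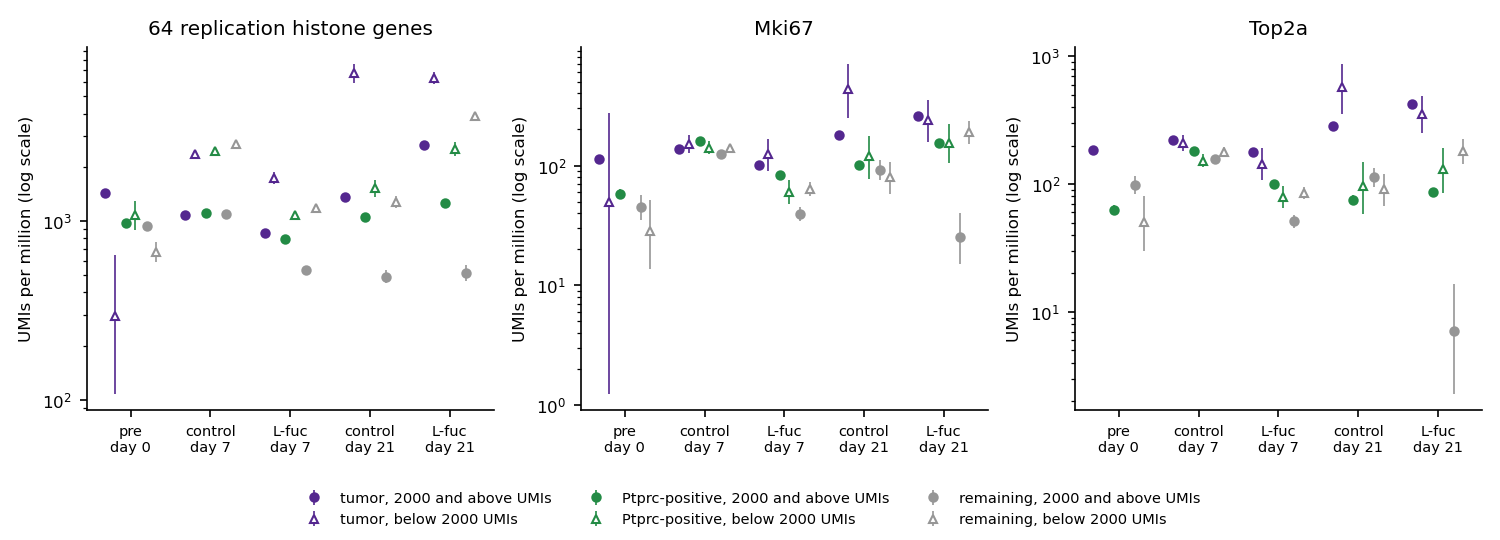
CPM (UMIs per 1000000 UMIs, log axis) of the summed replication histone genes, Mki67 and Top2a by library and barcode class, with filled circles for barcodes of 2000 UMIs and above and open triangles for shallower ones. Bars are 95% Poisson intervals, and levels of 0 are not drawn. The highest histone level in deep barcodes is that of tumor barcodes with L-fuc at day 21, at 2658 CPM, and shallow barcodes lie above deep ones in most groups.

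Shallow barcodes had more histone RNA per UMI than deep ones in all libraries but pretreatment. Over all classes, barcodes below 2000 UMIs had 750, 2580, 1193, 1610 and 3856 histone CPM, and those of 2000 and above had 1118, 1095, 810, 1187 and 1885. The ratio was 0.671 (0.603 to 0.745), 2.36 (2.32 to 2.39), 1.47 (1.44 to 1.51), 1.36 (1.28 to 1.44) and 2.05 (1.97 to 2.13). Over all classes Mki67 and Top2a did not share this direction. The same ratio was 0.306, 0.995, 0.748, 0.754 and 0.952 for Mki67, and 0.351, 0.852, 0.634, 0.605 and 0.799 for Top2a. In tumor barcodes the histone ratio was 2.19 (2.09 to 2.28) in control day 7, 2.02 (1.86 to 2.19) with L-fuc at day 7, 4.94 (4.34 to 5.61) in control day 21 and 2.37 (2.18 to 2.56) with L-fuc at day 21. In single classes Mki67 and Top2a were also higher in some shallow barcodes. In tumor barcodes of control day 21 their ratios were 2.44 (1.39 to 3.97) and 2.01 (1.245 to 3.085), and in remaining barcodes they were 1.61 and 1.67 with L-fuc at day 7 and 7.49 and 25.7 with L-fuc at day 21, where histone ratios were 2.20 and 7.56. At pretreatment the shallow tumor barcodes numbered 18 and held 6 histone UMIs.

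Members, summed here over all classes, took part unequally in the excess of shallow barcodes. In control day 7, 43 of 56 members were at least 2-fold higher and none at least 2-fold lower in shallow barcodes, against 10.5% and 7.13% of all genes. The count was 15 of 56 with L-fuc at day 7 (3.34% of all genes), 8 of 54 in control day 21 (5.36%), 16 of 56 with L-fuc at day 21 (3.18%) and 1 of 52 at pretreatment (3.13%). At least 2-fold lower were 9 of 52 at pretreatment (13% of all genes), none with L-fuc at day 7 (18%), 2 in control day 21 (20.5%) and 4 with L-fuc at day 21 (10.8%). In control day 7, Hist1h4d had 405 CPM in shallow and 116 in deep barcodes (3.51-fold), Hist1h3e 222 and 65.2 (3.40-fold) and Hist1h1e 534 and 206 (2.59-fold). Hist1h2ap went the other way there, at 59.1 and 99.5 (0.594-fold). With L-fuc at day 21 the largest ratios among the described members were those of Hist1h2af, at 180 against 12.5 CPM (14.4-fold), Hist2h4 at 96.0 against 10.1 (9.52-fold) and Hist1h2ak at 196 against 23.1 (8.47-fold), from 135, 72 and 147 UMIs in shallow barcodes. Hist1h2ap was at 217 against 166 (1.31-fold). The order of members in shallow barcodes was thus not that of deep barcodes. The mix of classes differed with depth as well. In control day 7 the remaining class held 2964 of 5048 shallow and 2103 of 14250 deep barcodes. Its part in the member order was not tested.

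Other measures moved with depth as well. Malat1, a nuclear noncoding RNA, had 8122 CPM in shallow and 2945 in deep tumor barcodes of pretreatment, 27637 and 7510 in control day 7, 16141 and 6155 with L-fuc at day 7, 9344 and 6414 in control day 21, and 8731 and 6466 with L-fuc at day 21. The mitochondrial share of UMIs was 1.73% and 0.758%, 3.10% and 2.90%, 1.86% and 2.67%, 2.91% and 2.20%, and 3.75% and 2.43% in the same order. At pretreatment both were thus higher in shallow tumor barcodes while histone RNA was lower. Marker RNA of other cells reached higher levels in shallow than in deep tumor barcodes. Over the libraries macrophage markers summed to 492 to 4891 CPM in shallow and 266 to 702 in deep ones. Leukocyte markers summed to 935 to 4016 and 846 to 1461, and red cell markers to 49.2 to 33760 and 38.7 to 1780. The melanoma and Schwann-like markers were higher in shallow ones too, at 1165 to 2215 and 785 to 871. The part of these measures in the histone difference was not tested.

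Barcodes differed widely in histone fraction. In deep tumor barcodes the median fraction was 0.0238%, 0.0629%, 0.0251%, 0.0317% and 0.0545% of UMIs, and the 99th percentile was 1.20%, 0.687%, 0.927%, 1.01% and 3.86%. The highest fraction in a deep barcode, 4.37%, was in the tumor class with L-fuc at day 21. The 10% of deep tumor barcodes with the most histone UMIs held 79.7%, 53.6%, 74.7%, 74.5% and 54.9% of all of that class. Histone RNA was thus concentrated in few barcodes in every library, and least so in the tumor barcodes of control day 7 and of L-fuc day 21.

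A histone UMI was present in 92.9%, 97.9%, 91.8%, 95.9% and 97.5% of deep tumor barcodes, which had median depths of 7706 to 28572 UMIs. After each barcode was thinned at random to 2000 UMIs, the share was 44.0%, 73.1%, 47.2%, 55.3% and 65.6%. In Ptprc-positive barcodes the thinned share was 50.4%, 79.8%, 59.2%, 55.0% and 63.8%. Neutrophils do not divide, so barcodes gated as such were examined as a reference for the level outside the cell cycle. Among Ptprc-positive barcodes gated on S100a8 and S100a9, 15 of 19 had a histone UMI with L-fuc at day 7 (602 CPM, 438 to 808, at a median of 2543 UMIs), and 10 of 13 in control day 21 (558 CPM, 399 to 760, median 3129 UMIs). In the other libraries this gate held 1 barcode at pretreatment (371 CPM), 3 in control day 7 (1280 CPM) and 4 with L-fuc at day 21 (442 CPM). All of these had a histone UMI. The control day 7 value, from 19 histone UMIs, was above the 1116 of its Ptprc-positive class, but within counting error. These few barcodes thus set no low reference level for control day 7. Shares of barcodes with a histone UMI are therefore not read as shares of cells in S phase. The other gates were macrophages (C1q genes), with 790, 1046, 743, 1008 and 1143 CPM, and T cells (Cd3 genes), with 1156, 1501, 1075, 1044 and 4493. The last of these came from 23 barcodes, and the 10% of them with the most histone UMIs held 88.9% of the total. Their median histone fraction was 0.0384%, against 0.0373% to 0.105% in the T cell gate of the other libraries.

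Histone RNA followed the cell cycle genes in every library. In deep tumor barcodes with 5 or more UMIs of Mki67 and Top2a together, the histone level was 4555, 2596, 2879, 3174 and 4666 CPM, and in those with 0 it was 255, 598, 257, 323 and 491. The ratio was 17.9 (16.5 to 19.4), 4.34 (4.27 to 4.42), 11.2 (10.9 to 11.5), 9.83 (9.32 to 10.4) and 9.50 (8.95 to 10.1). Without thinning, control day 7 had both the lowest level in the cycling tumor barcodes and the highest in those without a cycling UMI. The tumor barcodes without a cycling UMI had unlike depths, with a median of 6990 UMIs in control day 7 and 24880 with L-fuc at day 21. After thinning to equal depth (below), their levels were 747 CPM in control day 7 and 748 with L-fuc at day 21. Control day 7 was thus not the highest there at equal depth. In Ptprc-positive barcodes the levels were 3929, 2257, 2609, 4177 and 2799 with 5 or more, and 361, 745, 409, 457 and 595 with 0. The ratio was 10.9, 3.03, 6.37, 9.13 and 4.70, again lowest in control day 7. Barcodes with 5 or more of these UMIs were also deeper (in control day 7 a median of 11775 UMIs against 6990 in the tumor class).

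Most members were at least 2-fold higher in cycling barcodes in all groups but the Ptprc-positive barcodes of control day 7. In that group 48 of 51 members were still above 0, with a median log2 ratio of 0.97 against 0.13 for all genes. In the tumor class 33 of 36 members with at least 10 UMIs were at least 2-fold higher in the cycling barcodes at pretreatment (8.74% of all genes tested), 35 of 56 in control day 7 (7.67%), 46 of 52 with L-fuc at day 7 (7.96%), 39 of 42 in control day 21 (8.17%) and 38 of 45 with L-fuc at day 21 (8.26%). In the Ptprc-positive class the counts were 42 of 46 (7.67%), 23 of 51 (6.46%), 42 of 51 (7.25%), 36 of 45 (9.47%) and 34 of 45 (11.9%). No member was at least 2-fold lower in either class, against 5.35%, 4.01%, 5.87%, 4.95% and 4.76% of all genes in the tumor class and 10.2%, 3.96%, 7.48%, 8.44% and 5.09% in the Ptprc-positive class. Members with models that end near the stop codon had the higher median log2 ratio in the tumor class, at 4.09, 1.57, 3.13, 3.22 and 3.44 against 2.76, 0.81, 2.15, 2.23 and 2.34 for members with longer models.

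At equal depth the gradient remained. After thinning to 2000 UMIs, tumor barcodes with 0, 1, 2 to 4 and 5 or more UMIs of Mki67 and Top2a had 747, 1370, 2609 and 2991 histone CPM in control day 7. With L-fuc at day 7 the levels were 339, 1330, 3664 and 4426, and in control day 21 they were 367, 1739, 3809 and 4079. With L-fuc at day 21 they were 748, 2478, 8360 and 6477, where the top bin of 22 barcodes was below the bin before it. At pretreatment they were 462, 2500, 4500 and 8125, the last from 8 barcodes. Over 5 random draws the ratio of the top bin to the bin of 0 ranged from 3.94 to 4.18 in control day 7, 13.0 to 16.8 with L-fuc at day 7, 10.5 to 13.3 in control day 21, 8.66 to 16.7 with L-fuc at day 21 and 16.6 to 27.2 at pretreatment. Sorting by 53 S phase genes in place of Mki67 and Top2a gave a ratio of barcodes with 5 or more UMIs to those with 0 of 15.8, 3.38, 8.40, 8.85 and 14.3 in tumor barcodes and of 6.34, 2.47, 3.68, 5.52 and 4.12 in Ptprc-positive ones.

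**Figure D2:**
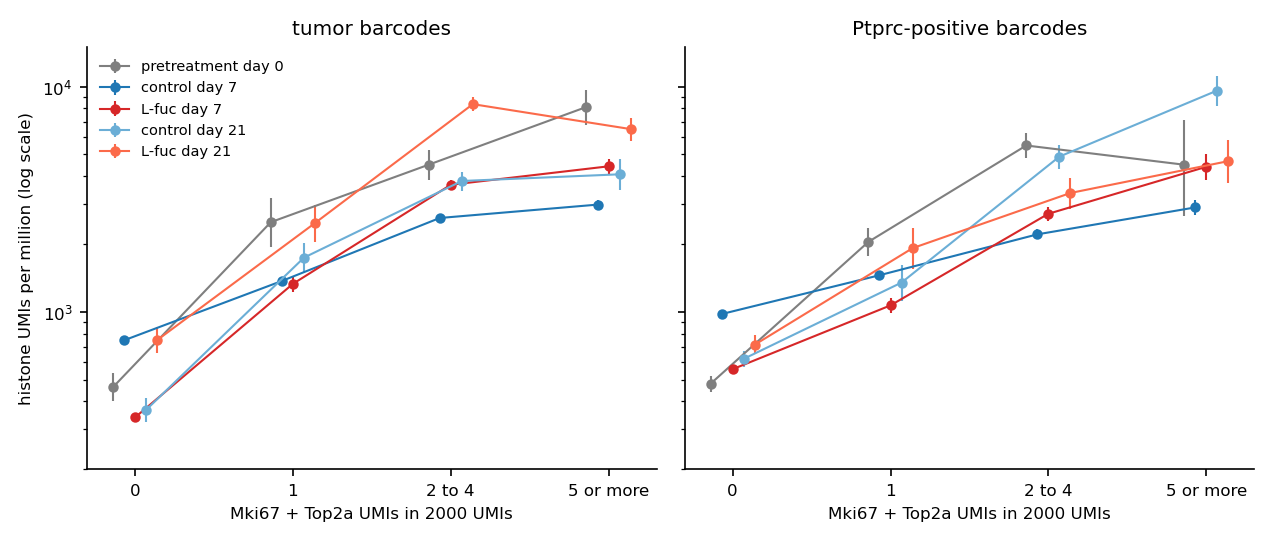
Replication histone CPM (UMIs per 1000000 UMIs, log axis) in barcodes thinned to 2000 UMIs, by the UMIs of Mki67 and Top2a left in the barcode, for tumor and Ptprc-positive barcodes of each library, with 95% Poisson intervals. Levels climb from the bin of 0 in all 5 libraries, and the control day 7 line is the flattest, at 747 to 2991 CPM in the tumor class.

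Among tumor barcodes pooled over the libraries after thinning, 408 with 5 or more and 9297 with 0 UMIs of Mki67 and Top2a, Hist1h2ap had the highest ratio of the members with at least 30 UMIs, at 13.8 (11.9 to 16.01). Hist1h3g (11.9) and Hist1h2ak (10.4) were next. Hist1h2ae was at 10.4, Hist1h1b at 8.11 and Hist1h1e at 6.27. Low ratios were found for Hist1h1c (1.998), Hist1h4i (2.43) and Hist1h2bc (1.26, 0.661 to 2.20). The 3 lowest were Hist1h1a (0.876, 0.0214 to 5.335), Hist2h2aa1 (0.624, 0.0742 to 2.337) and Hist2h2be (0, 0 to 3.623). They had 1, 2 and 0 UMIs in the cycling barcodes after thinning. These intervals include 1, so no direction is given for the 3 members, and Hist1h1a had few UMIs in tumor barcodes as a whole. Of the members with many UMIs, Hist1h2ae and Hist1h2ap thus had high ratios and Hist1h1c a low one. Control day 7 gave 291 of the 408 and 6265 of the 9297 barcodes, so the order is mainly that of this library. By library and without thinning, Hist1h2ap ranged from 25.3- to 78.2-fold with a median of 50.2, and the medians of Hist1h3b, Hist1h2af, Hist1h3c and Hist1h2ab were higher, against few or no UMIs in the barcodes without cycling UMIs of most libraries other than control day 7.

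Hist1h2ap and Hist1h2bc show the range in unthinned barcodes. Hist1h2ap had 14.7, 14.5, 9.78, 5.85 and 19.7 CPM in tumor barcodes with 0 Mki67 and Top2a UMIs, and 1150, 401, 570, 294 and 497 in those with 5 or more. Hist1h2bc had 14.7, 10.1, 13.5, 19.0 and 45.03 in the former and 16.3, 7.51, 13.9, 27.8 and 25.6 in the latter. The former was far higher in cycling barcodes of every library, and the latter was within 2-fold of its level in the other barcodes in each.

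The linker histone genes differed in both their cell cycle pattern and their class. Hist1h1b and Hist1h1d followed cycling more than the other H1 genes, with median ratios over the libraries of 15.96 and 17.9 between tumor barcodes with 5 or more and 0 UMIs of Mki67 and Top2a. Hist1h1b had 4.90, 34.6, 7.92, 13.8 and 23.2 CPM in tumor barcodes without Mki67 and Top2a UMIs and 353, 191, 181, 220 and 337 in those with 5 or more. Hist1h1c had 47.9, 46.2, 42.2, 48.2 and 58.6 in the former and 111, 56.1, 74.8, 79.3 and 118 in the latter. In each library the ratio of Hist1h1c was below those of Hist1h1b, Hist1h1d and Hist1h1e.

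Hist1h1a was nearly absent from tumor barcodes. In deep tumor barcodes it had 0, 114, 23, 1 and 2 UMIs, or 0, 1.59, 0.538, 0.0933 and 0.275 CPM, and in Ptprc-positive barcodes it had 13.5, 5.90, 9.26, 11.4 and 23.3 CPM. The gap was also there among cycling barcodes, where Hist1h1a had 0, 30, 10, 1 and 1 UMIs in the tumor class and 79, 85, 159, 72 and 140 in the Ptprc-positive class. That is 0, 1.82, 1.05, 0.258 and 0.264 CPM against 64.7, 13.9, 32.0, 58.0 and 63.3. Within the Ptprc-positive class Hist1h1a was thus higher in cycling barcodes than over all deep barcodes in every library. For the 0 UMIs in cycling tumor barcodes of pretreatment the exact Poisson upper bound was 3.00 CPM. The 2 libraries with the most Hist1h1a in tumor barcodes were also those with the most RNA of other cell classes there. T cell markers summed to 2.19, 34.4, 15.8, 3.36 and 4.39 CPM in deep tumor barcodes, with between 3 and 8 of the 8 detected, and macrophage markers to 266, 702, 413, 404 and 348, with all 6 detected. Their part in the Hist1h1a count was not tested.

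Hist1h3d, an H3 gene named after its values were seen, had the same kind of pattern at lower counts. Cycling tumor barcodes held 0, 4, 4, 0 and 0 UMIs of Hist1h3d and cycling Ptprc-positive ones 15, 8, 15, 15 and 31. For the other H1 genes the classes were closer. In cycling barcodes Hist1h1e had 668, 447, 412, 410 and 684 CPM in the tumor class and 296, 358, 290, 417 and 336 in the Ptprc-positive class. Tumor barcodes were thus higher in 4 libraries and nearly level in control day 21. Over all members with at least 10 UMIs, 10 of 48, 4 of 55, 9 of 53, 20 of 51 and 4 of 50 were at least 2-fold lower in cycling tumor than in cycling Ptprc-positive barcodes, against 15.9%, 12.4%, 15.3%, 13.1% and 14.9% of all genes.

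**Figure D3:**
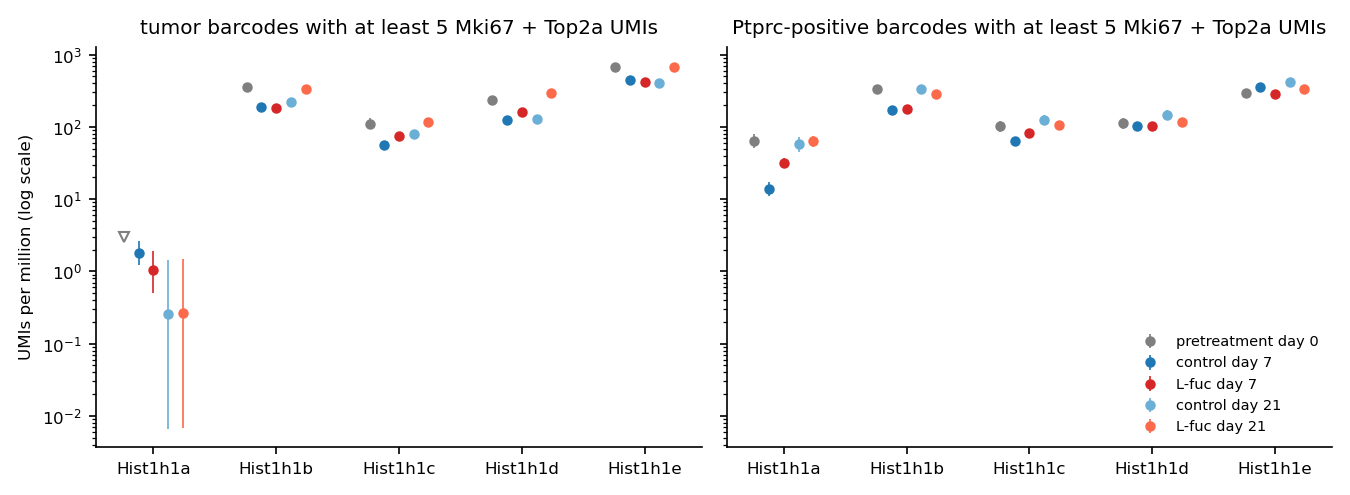
CPM (UMIs per 1000000 UMIs, log axis) of 5 H1 genes in barcodes with 5 or more UMIs of Mki67 and Top2a, for tumor and Ptprc-positive barcodes of each library, with 95% Poisson intervals. An open triangle marks the upper limit where there was no UMI. Hist1h1a lies at 0 to 1.82 CPM in tumor barcodes and at 13.9 to 64.7 in Ptprc-positive ones, while the other 4 genes overlap in range.

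At day 7, histone RNA was lower with L-fuc than in the control in both classes. Deep tumor barcodes had 860 CPM with L-fuc and 1086 in the control, a log2 ratio of -0.34 (-0.35 to -0.32). The ratio was -0.75 without the deepest 5% of barcodes, a cut set over all kept barcodes of each library, whatever their class or depth. The share of tumor barcodes left out was not counted and can be larger than 5%. Deep Ptprc-positive barcodes had 791 and 1116, a log2 ratio of -0.50 (-0.52 to -0.47), which was -0.77 as a mean of the fraction per barcode. Mki67 was lower as well, at -0.46 and -0.93, and so was Top2a, at -0.32 and -0.88, in the tumor and the Ptprc-positive class. Median depth of the tumor barcodes was 14380 UMIs with L-fuc and 7706 in the control.

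The difference at day 7 was unequal over histone types. In tumor barcodes H3 had 56.7 CPM with L-fuc and 115 in the control (log2 -1.02, -1.09 to -0.95), H4 had 98.9 and 152 (-0.62), H1 277 and 378 (-0.45) and H2B 45.7 and 58.3 (-0.35). H2A had 382 in both, with an interval of the log2 ratio from -0.03 to 0.03. The order in Ptprc-positive barcodes was similar, with H3 at -0.98, H1 at -0.60, H4 at -0.55, H2A at -0.28 and H2B at -0.22. Of 56 members tested in tumor barcodes, 7 were at least 2-fold lower and none at least 2-fold higher with L-fuc, against 5.74% and 2.62% of all genes, and the member median was -0.30 against -0.04 for all genes. In Ptprc-positive barcodes 10 of 55 were lower and 2 higher (10.5% and 9.14% of all genes), with a median of -0.10 against -0.15.

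Named members gave the extremes at day 7. Hist1h1a had the lowest tumor ratio (-1.56, from 23 UMIs with L-fuc and 114 in the control), next to Hist1h2bm (4.05 and 11.6 CPM, -1.52) and Hist1h3f (11.9 and 29.3, -1.30). The highest were Hist1h3a (0.67), Hist2h3b (0.66) and Hist1h2bk (0.59), with levels all below 1 CPM. In Ptprc-positive barcodes Hist1h3c was at 6.09 with L-fuc and 17.2 in the control (-1.50), Hist1h3b at 0.810 and 2.11 (-1.38), and Hist1h2bm at 6.22 and 13.5 (-1.11). Hist2h3b (1.74), Hist1h4n (1.35) and Hist1h2bk (0.86) were the highest there. H3 genes were among both the lowest and the highest members.

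The direction of the day 7 difference depended on the cycling counts of the barcodes. After thinning, tumor barcodes without a Mki67 or Top2a UMI had 339 CPM with L-fuc and 747 in the control (0.455-fold, 0.455 to 0.488 over 5 draws). Those with 2 or more had 3857 and 2716 (1.42-fold, 1.39 to 1.49 over the draws). Barcodes without such a UMI were 82.7% of the tumor class with L-fuc and 73.8% in the control. In Ptprc-positive barcodes the ratio was 0.569 without a cycling UMI and 1.24 with 2 or more. With 1 or more it was 0.945 (0.893 to 1.00) in Ptprc-positive and 1.36 (1.31 to 1.42) in tumor barcodes. The lower total at day 7 thus held for barcodes without a cycling UMI and turned for those with 2 or more.

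At day 21, tumor barcodes had more histone RNA with L-fuc. The level was 2658 CPM with L-fuc and 1360 in the control, a log2 ratio of 0.97 (0.94 to 1.00) or 1.95-fold, and the log2 ratio was 1.497 without the deepest 5% of barcodes. Mki67 was at 0.53 and Top2a at 0.56 in the same barcodes, at median depths of 28572 and 22477 UMIs. In Ptprc-positive barcodes the histone level was 1262 and 1055 (0.26, 0.22 to 0.30), with Mki67 at 0.62 and Top2a at 0.20. That ratio was 0.09 when barcodes of low complexity were left out, 0.10 without the deepest 5% and 0.11 when barcodes were thinned, all outside its counting interval. Remaining barcodes had 513 and 489 (0.07, -0.13 to 0.26), and shallow tumor barcodes had 6286 and 6721 (-0.10, -0.31 to 0.12), intervals that both include 0. The tumor ratio at day 21 was thus found in deep barcodes and was not detectable in the shallow ones, which numbered 84 and 37.

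Every histone type was higher in the day 21 tumor barcodes. H3 had 297 CPM with L-fuc and 130 in the control (1.19, 1.09 to 1.29), H1 852 and 402 (1.08), H2B 175 and 86.7 (1.02), H2A 1030 and 561 (0.88) and H4 304 and 180 (0.75). Of 53 members tested, 32 were at least 2-fold higher and none at least 2-fold lower, against 2.91% and 1.94% of all genes. The member median was 1.14 against -0.01 for all genes, and 50 of the 53 members were above 0. In Ptprc-positive barcodes 4 of 52 were higher and 3 lower (5.05% and 3.06% of all genes), with a median of 0.25 against -0.05.

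Other genes of the pathway had smaller ratios in the day 21 tumor barcodes. Over all genes 2.91% were at least 2-fold higher and 1.94% lower there, so few genes past 2-fold in lists of this size is near that share. The list medians below were above the median of all genes given above. None of 53 S phase genes was past 2-fold (median 0.30), with Pcna, the sliding clamp of DNA polymerase, at 113 CPM with L-fuc and 94.1 in the control and Dut, a nucleotide enzyme, at 146 and 123. None of 55 G2 and M phase genes was past 2-fold either (median 0.33), with Hmgb2 at 561 and 404. Of 31 genes for histone mRNA transcription and processing 1 was at least 2-fold higher (median 0.06), and Slbp was at 73.0 and 65.3. Of 12 tested genes from a list of replication-independent histones, 1 was higher and 1 lower (median 0.04). The list also held Hist3h2a, Hist3h2ba, Hist4h4, Cenpa and H2afx, so it is not a pure set of that kind. H3f3b was at 1896 and 2145 and H2afz at 808 and 689. None of 28 histone chaperones, which carry histones to DNA, was past 2-fold (median 0.19). At day 7 in tumor barcodes the medians of these lists lay between -0.30 (G2 and M phase) and -0.00 (S phase), with no gene past 2-fold. Over all genes 2.62% were higher and 5.74% lower there.

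The named members at day 21 ranged from no difference to several-fold. In tumor barcodes Hist1h4n had 4.12 CPM with L-fuc and 0.560 in the control (log2 2.88), Hist1h2an 8.51 and 1.49 (2.51), and Hist1h2af 20.2 and 4.57 (2.14). Of the abundant members, Hist1h1d was at 165 and 53.7 (1.62), Hist1h1b at 187 and 87.1 (1.10), Hist1h1e at 411 and 200 and Hist1h2ae at 573 and 384. The lowest were Hist2h2be (-0.65, -1.71 to 0.33), Hist1h4i (14.8 and 14.4, 0.05) and Hist1h2bc (31.8 and 22.6, 0.50). These 3 were also among the members with low cycling ratios. In Ptprc-positive barcodes the highest were Hist1h2af (6.15 and 0.995, 2.63), Hist1h4k (5.35 and 2.24, 1.26) and Hist1h4c (12.03 and 5.47, 1.14). The lowest there were Hist1h2bp (1.74 and 4.85, -1.48), Hist1h3g (1.87 and 4.10, -1.13) and Hist1h2bm (5.88 and 7.58, -0.37).

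**Figure D4:**
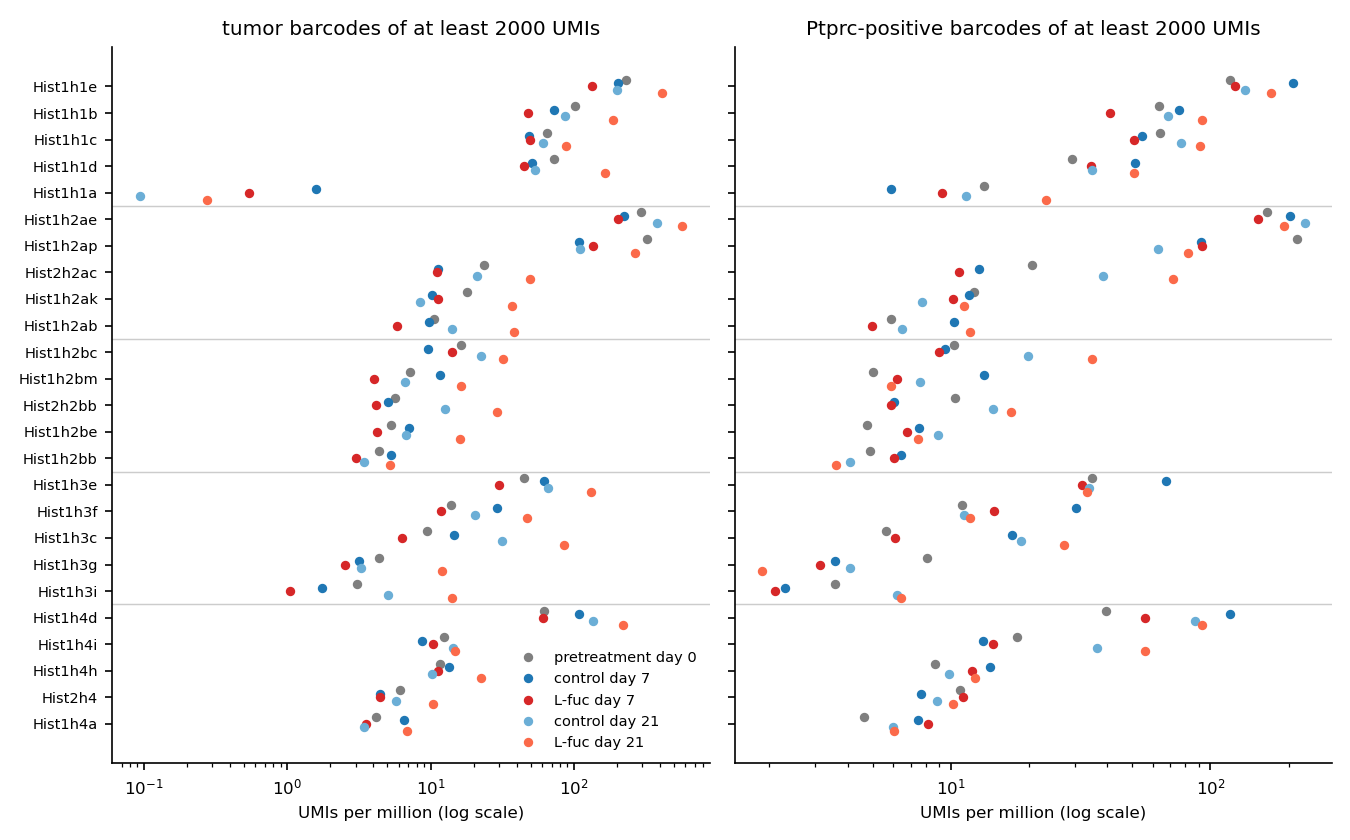
CPM (UMIs per 1000000 UMIs, log axis) of the 5 members with the most UMIs of each histone type, by library, in deep tumor and deep Ptprc-positive barcodes. Hist1h2ae, Hist1h1e and Hist1h2ap lie at the top, and most members are highest in the L-fuc day 21 library in the tumor class.

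**Figure D5:**
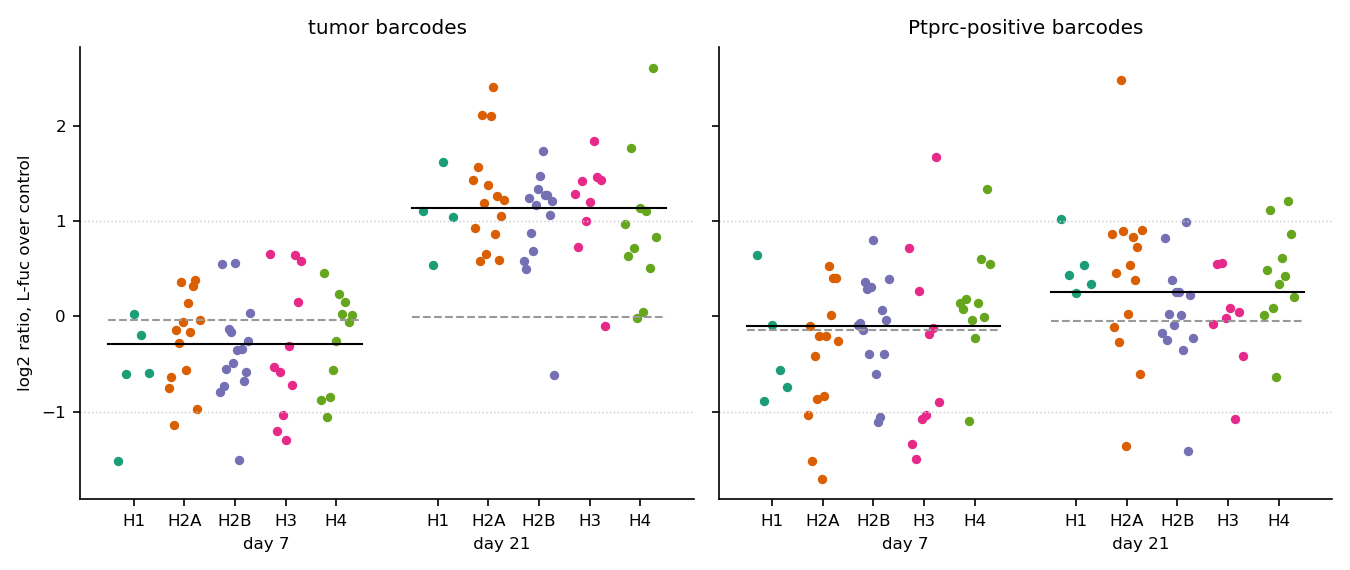
Log2 ratio of L-fuc over control for each member with at least 10 UMIs, by histone type, at day 7 and day 21 in deep tumor and Ptprc-positive barcodes, with a solid line at the member median, a dashed line at the median of all genes and dotted lines at 2-fold. In day 21 tumor barcodes the member median is 1.14 and that of all genes -0.01.

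Among tumor barcodes with like cycling counts at day 21 the ratio was smaller than over all of them. After thinning it was 2.62 (2.41 to 2.85) over all tumor barcodes (2795 and 1067 CPM, 2.51 to 2.81 over 5 draws). It was 2.04 without a cycling UMI (748 and 367 CPM, 1.65 to 2.04 over 5 draws) and 1.99 with 2 or more (7723 and 3878, 1.84 to 2.02 over the draws). Barcodes with 2 or more were 27.0% of the class with L-fuc and 16.1% in the control. In Ptprc-positive barcodes the ratio was 1.16 without a cycling UMI and 0.615 with 2 or more, the latter from 32 and 36 barcodes. After thinning the Ptprc-positive ratio over all barcodes was 1.08 (0.985 to 1.18), an interval that includes 1, so no direction is given for it. The tumor ratio was smaller within both bins than over all.

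Control libraries also differed by day, and these comparisons share control libraries with those above. Control day 7 had 1086 CPM in tumor barcodes against 1429 at pretreatment (-0.40, -0.43 to -0.36) and 1116 against 971 in Ptprc-positive barcodes (0.20). The tumor ratio was -0.05 when barcodes were thinned and -0.11 without the deepest 5% of them. The types split, with H2A lower in the tumor class (382 against 701, -0.87) and H3 and H4 higher (0.48 and 0.49). Hist1h2ap was at 109 in control day 7 and 323 at pretreatment in tumor barcodes, and at 92.0 and 215 in Ptprc-positive ones, while Hist1h4d was at 110 and 62.0, and at 119 and 39.6. Members at least 2-fold higher and lower were 5 and 8 of 56 in the tumor class (13.8% and 2% of all genes) and 8 and 12 of 55 in the Ptprc-positive class (29.2% and 10.4%).

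From control day 7 to control day 21 the tumor level was 1086 and 1360 (0.32) and the Ptprc-positive level 1116 and 1055 (-0.08). Members at least 2-fold higher and lower at day 21 were 11 and 2 of 57 (5.9% and 10.1%) and 14 and 3 of 55 (11.3% and 26.8%). Scaling turned the Ptprc-positive ratios of both control comparisons, to -0.05 and 0.20 with TMM factors, so no direction is given for them. The tumor ratio between the control days was -0.01 when barcodes were thinned and -0.18 without the deepest 5% of barcodes, so its direction also rests on the deepest barcodes. Without control day 7, control day 21 against pretreatment gave -0.07 (-0.11 to -0.03) in the tumor class and 0.12 (0.08 to 0.17) in the Ptprc-positive class, with 6 and 8 of 50 members at least 2-fold higher and lower in the tumor class (9.4% and 1.3% of all genes) and 10 and 3 of 52 in the Ptprc-positive class (11.1% and 7.47%).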

How the data were processed

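The authors processed 10x Genomics reads with Cell Ranger (version 3.0 per the labels, 7.1.0 per the matrix headers), mapped to mm10. The UMI counts they deposited for 5 gene expression libraries, by gene and barcode, are not normalized. Whether the 3′ or 5′ chemistry was used is not given in the sources used here. The 5 T cell receptor libraries were not used.

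UMIs were summed per library, barcode class and depth with numpy 2.4.6, pandas 2.3.3 and scipy 1.17.1 in Python 3.11.15, and plotted with matplotlib 3.10.9. Sums have exact Poisson, shares exact binomial (Clopper-Pearson) and ratios exact conditional intervals, at 95%. Counts of genes past 2-fold, medians over genes and the plotted member ratios used a pseudocount of 1 UMI. They needed at least 10 UMIs in both groups together. Ratios printed for single genes used no pseudocount. Thinning drew 2000 UMIs without replacement. Scaling alternatives used TMM (edgeR 4.0.16) and DESeq2 1.42.0 size factors in R 4.3.3. The interval code was tested on simulated data. Gene models were those of GENCODE vM21.

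Members and lists were chosen with earlier results of these data known. Genes named are the 5 members with the most UMIs of each type, the 3 highest and 3 lowest ratios with at least 30 UMIs in each L-fuc comparison and between cycling and other tumor barcodes, Mki67, Top2a, Slbp and the 3 genes with the most UMIs in other lists. Others, such as members described for depth or low counts, were named after their values were seen. Alternatives changed the filters, depth, scaling, pseudocount and members, as given in the closing section. The deepest 5% of barcodes were taken over all kept barcodes of a library, so the share left out of a class can differ from 5%.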

Additional observations from a re-analysis of the deposited data

Results flagged for a closer look

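The log2 ratio of L-fuc over control for the summed replication histone UMIs had opposite signs at the 2 times. In deep tumor barcodes it was -0.3362 at day 7 and 0.9669 at day 21. In deep Ptprc-positive barcodes it was -0.4965 at day 7 and 0.2582 at day 21. After thinning, the Ptprc-positive value at day 21 was 0.1111 (-0.02233 to 0.2438), an interval that includes 0, so no direction is given for it. Each of these rests on 1 library against 1 library, and the difference between the times was not tested.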

How the results depend on the processing

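With 1 library per group no replicate could be left out, and all values below are log2 ratios of summed histone CPM (UMIs per 1000000 UMIs) unless counts are named. No paired analysis was possible because each group is 1 pooled library. Of the alternative values for the ratios, 36 moved by less than their counting interval, 41 moved by more and 7 changed sign. Of the alternative counts of members past 2-fold, 60 stayed within 1.5 times the reported count and 4 did not. For L-fuc over control at day 7 in tumor barcodes (-0.34), TMM factors gave -0.2996, DESeq2 size factors -0.2979, leaving out Hist1h2ae -0.3914, thinning -0.5137, the mean fraction per barcode -0.5249 and leaving out the deepest 5% of barcodes -0.7522. In Ptprc-positive barcodes at day 7 (-0.50) the values were -0.3522 with TMM, -0.3531 with DESeq2, -0.5837 without barcodes that held Sox10, -0.585 over all depths, -0.7039 without the deepest 5%, -0.7531 thinned and -0.7662 for the mean fraction, and TMM left 4 members at least 2-fold lower in place of 10. At day 21 in tumor barcodes (0.97) they were 1.095 without Hist1h2ae, 1.368 for the mean fraction, 1.389 thinned and 1.497 without the deepest 5%. At day 21 in Ptprc-positive barcodes (0.26) they were 0.08749 with a complexity of at least 0.8, 0.09906 without the deepest 5%, 0.1111 thinned, 0.132 for the mean fraction, 0.3045 with TMM, 0.3777 without the top member and 0.4079 without Sox10, and 8 members in place of 4 were at least 2-fold higher with no minimum count. The 4 L-fuc ratios kept their sign under every alternative run, but the thinned interval for Ptprc-positive barcodes at day 21 (-0.02233 to 0.2438) included 0. For control day 7 over pretreatment in tumor barcodes (-0.40) the values were -0.0535 thinned, -0.1146 without the deepest 5% and -0.1234 for the mean fraction. In Ptprc-positive barcodes (0.20) TMM gave -0.0452 and DESeq2 -0.06846, a change of sign, and the others were 0.1618 with the complexity filter, 0.3087 over all depths, 0.3565 without Sox10, 0.5727 without the deepest 5%, 0.6859 for the mean fraction and 0.7456 thinned. For control day 21 over control day 7 in tumor barcodes (0.32), thinning (-0.009753), the mean fraction (-0.04332) and leaving out the deepest 5% (-0.1759) changed the sign, DESeq2 gave 0.1254, TMM 0.13 and leaving out the top member 0.1761, and with TMM 5 members were higher and 5 lower in place of 11 and 2. In Ptprc-positive barcodes (-0.08) TMM (0.1975) and DESeq2 (0.2168) changed the sign, and the others were -0.1488 without the top member, -0.1744 over all depths, -0.2794 without Sox10, -0.3137 thinned and -0.3259 for the mean fraction. The cause was not tested. The comparison without control day 7 and those within bins of Mki67 and Top2a UMIs were chosen after seeing the data. Depth limits the shallow pretreatment tumor barcodes (6 histone UMIs) and the bins with 5 or more Mki67 and Top2a UMIs after thinning, which held 8 tumor and 2 Ptprc-positive barcodes at pretreatment.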

Other observations

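Barcodes removed by the filters on genes and mitochondrial share also held histone RNA. Their histone level was 1120, 1770, 672, 769 and 726 CPM in the order pretreatment, control and L-fuc at day 7, then control and L-fuc at day 21, from 65, 1443, 3023, 773 and 192 barcodes. In control day 7 it was above the 1177 of the kept barcodes, and in both L-fuc libraries and control day 21 it was below the kept level.

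Barcodes gated on Cd79a and Cd79b among Ptprc-positive barcodes of 2000 UMIs and above had 1406, 1570, 519, 2401 and 1004 histone CPM. The gate was set on raw UMIs and is not a call of B cells. Its barcodes had a median of 3526 UMIs at pretreatment, 33891 in control day 21 and 27216 with L-fuc at day 21. The 5 levels came from 78, 16, 16, 15 and 33 barcodes, so the values of the later libraries rest on few barcodes.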
